A study of Arabidopsis thaliana with 9 samples.

Results

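MIR400 (AT1G32582), its host gene AT1G32583 and the pentatricopeptide repeat genes PPR1 (AT1G06580) and PPR2 (AT1G62720) were followed across 3 genotypes of Arabidopsis thaliana seedlings. These 4 loci were taken by identifier, under a rule that used no measured value, from the 26973 genes of the deposited expression table. The genotypes were OXmiR400, OXrPPR1 and wild type, with 3 libraries each, and every library, wild type included, came from seedlings given 100 µM cadmium, a toxic metal, for 6 h. The titles carry the name Colombia throughout and a single line code for each genotype. The labels give neither the promoter of a transgene nor the meaning of the letter r in OXrPPR1, and separate cultures are not stated for the replicates, whose spread, the base of every p-value, may therefore be technical. No library without cadmium was analysed here.

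MicroRNAs are cut from a folded precursor RNA and guide an Argonaute protein to transcripts that pair with them, which in plants are usually cleaved. In Arabidopsis, miR400 comes from an intron of a protein-coding gene, and PPR1 and PPR2 are known targets that it guides for cleavage. Pentatricopeptide repeat (PPR) proteins bind organelle RNA in a sequence-dependent way and act in its processing, editing and translation. The libraries were made from mRNA, so a value for MIR400 counts fragments of the precursor transcript and not the mature microRNA.

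The sequences that define the pairing are given first, 5′ to 3′, from the RefSeq TAIR10.1 genome, all on chromosome 1. Capitals mark the seed (bases 2 to 8) in miR400, the mature microRNA in the precursor, and in each site the base that does not form a Watson-Crick pair with miR400.
miR400, chr1:11785947-11785967, plus strand: uAUGAGAGuauuauaagucac
MIR400 precursor, chr1:11785936-11786037, plus strand: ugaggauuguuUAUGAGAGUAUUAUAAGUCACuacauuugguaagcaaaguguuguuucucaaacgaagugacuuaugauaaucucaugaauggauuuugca
PPR1 site, chr1:2014950-2014970, minus strand: gugacuuauaauacucucaua
PPR2 site, chr1:23228516-23228536, plus strand: gugacuuauaauacucucauU
The PPR1 site paired with miR400 over all 21 bases. The PPR2 site differed in its last base, which faces position 1 of the microRNA, outside the seed. The precursor of 102 bases folded with a computed minimum free energy of -38.2 kcal/mol, and 20 of the 21 mature bases were paired in that fold.

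Both sites lay in coding sequence and at nearly the same relative place. The PPR1 site covered coding bases 973 to 993 of 1503, and the PPR2 site coding bases 943 to 963 of 1458, each starting 64.7% of the way along. The site was present in all 3 annotated transcripts of PPR1 and in the 1 transcript of PPR2. Both sites began at the first base of a codon.

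MIR400 lay within intron 1 of the 3 introns of its host, on the same strand. The intron, at chr1:11785917-11786222, was 306 bases long. The precursor began 19 bases after the intron's start and ended 185 bases before its end. The host spans chr1:11785806-11788286, with 1962 bases of exon and its first coding base at 11787351, so the intron with the precursor lies in the 5′ untranslated part. The table describes the host as a tapetum determinant protein, a name from a gene of anther development. PPR1 spans chr1:2013996-2016273 on the minus strand and overlapped no other annotated gene. PPR2, which the table calls NG1, spans chr1:23227532-23229150 on the plus strand, and its 3′ end overlapped AT1G62730, a terpenoid synthase gene on the other strand that measured 3.13 to 5.37 FPKM. How strand was handled in the counting is not given in the sources used here, so reads of that overlap cannot be assigned to either gene. The annotation also places AT1G08557, on the minus strand at chr1:23228101-23228395, over PPR2 exon sequence, and AT1G06597, on the plus strand at chr1:11786292-11786371, over exon sequence of the host gene. Neither was analysed here. No stretch of more than 50 bases in the exons of the 4 loci occurred elsewhere in the genome in the same orientation. Copies in inverted orientation were not searched for.

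**Figure D1:**
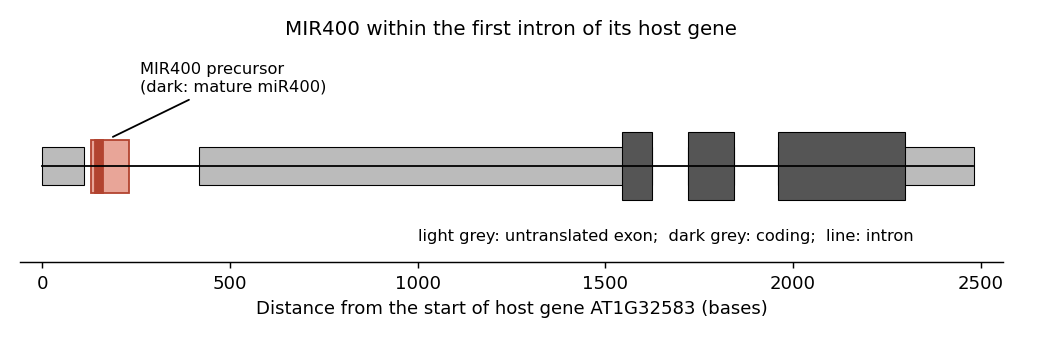
Map of the host gene AT1G32583, drawn to scale as distance from its start in bases. The MIR400 precursor sits in the first intron, 19 bases after the intron starts, and all coding sequence lies farther along.

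Estimated depth was 15.6 to 17.1 M units in OXmiR400, 19.3 to 21.1 M in OXrPPR1 and 12.7 to 17.1 M in wild type, where a unit is a read or a fragment. The seedling label went with high levels of green shoot markers (LHCB1.1 at 1172 to 2582 FPKM) and with root markers (CASP1 at 14.4 to 35.9 FPKM). The seed storage gene CRA1 stayed at 0 to 0.875 FPKM and the seed marker OLEO1 at 0 to 0.609 FPKM. The floral gene AG stayed at 0.0913 to 0.638 FPKM. The other floral marker, AP3, ranged from 0.065 to 2.65 FPKM, with a mean of 1.35 FPKM in OXrPPR1, so floral transcripts were not absent. The 3 root markers summed to 39.7 to 46.6 FPKM in OXmiR400, 47.4 to 86.5 FPKM in OXrPPR1 and 82.6 to 95.6 FPKM in wild type. The 3 green shoot markers summed to 6095 to 8236, 5604 to 7658 and 4965 to 5559 FPKM in the same genotypes. None of these 6 markers passed the test in any comparison. In OXmiR400 against wild type all 3 root markers were lower and 2 of the 3 green shoot markers (LHCB1.1 and PSAG) were higher at an unadjusted p under 0.05, which 15.9% of all genes had, and the smallest adjusted p was 0.0521 (limma). Whether the balance of root and shoot plays a part in the values below was not tested. In such bulk samples, fewer cells of a type and less RNA per cell cannot be told apart.

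The precursor checks the label of the OXmiR400 line. MIR400 measured 953, 684 and 629 FPKM in the OXmiR400 libraries, 0.348, 0.241 and 0 FPKM in the OXrPPR1 libraries and 0.194, 0.572 and 0 FPKM in the wild type libraries. All 3 OXmiR400 libraries stood far above the other 6. In units, the OXmiR400 libraries held 1659, 1086 and 1049, against 0.75, 0.5 and 0 in OXrPPR1 and 0.25, 1 and 0 in wild type. A count of 3 units, the limit that a count of 0 allows, would correspond to 1.39 to 2.32 FPKM, so MIR400 was not detectable above this depth's limit in OXrPPR1 or wild type.

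On log2(FPKM + 1), MIR400 was 9.24 ± 0.21 higher in OXmiR400 than in wild type (SE, 95% interval 8.77 to 9.70, adjusted p = 1.15e-08 in limma). It was 9.29 ± 0.21 higher in OXmiR400 than in OXrPPR1 (SE, adjusted p = 7.24e-09 in limma). These sizes depend on the pseudocount, and with 0.1 in place of 1 they were 11.43 and 11.55. Per unit of depth, MIR400 was 2775 times as frequent in OXmiR400 as in wild type, a ratio that rests on 1.25 units in wild type. Its counting interval was 578 to 58505 (95%, counting error only). This interval treats the units as whole counts, which they are not, and is therefore approximate. MIR400 entered the test only because of its level in OXmiR400, so it had to differ there. In that comparison 0.571% of the 19955 genes tested were called and 0.215% were called higher, and in OXmiR400 against OXrPPR1 0.0401% were called higher. OXrPPR1 differed from wild type by -0.06 ± 0.21 (SE, 95% interval -0.52 to 0.41, adjusted p = 0.951 in limma), with both genotypes below the depth limit.

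No difference of the host gene was called. AT1G32583 measured 2.89, 3.14 and 3.56 FPKM in the OXmiR400 libraries, 3.16, 3.06 and 2.12 FPKM in the OXrPPR1 libraries and 2.81, 2.15 and 2.70 FPKM in the wild type libraries. The OXmiR400 libraries all lay above the wild type libraries, as was the case in one direction or the other for 24.3% of genes tested in that comparison. The OXrPPR1 libraries overlapped both. The log2 difference between OXmiR400 and wild type was 0.24 ± 0.16 (SE, 95% interval -0.12 to 0.60) and did not pass (adjusted p = 0.509 in limma). For OXrPPR1 against wild type it was 0.08 (95% interval -0.28 to 0.44, adjusted p = 0.893 in limma), and for OXmiR400 against OXrPPR1 it was 0.16 (95% interval -0.20 to 0.52, adjusted p = 0.907).

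Set against each other per length, the precursor exceeded the host 330, 218 and 177 times in the OXmiR400 libraries. The precursor was 0.110, 0.0785 and 0 times the host in the OXrPPR1 libraries, and 0.0689, 0.265 and 0 times the host in the wild type libraries. The host itself rested on 222.5 to 333.5 units per genotype, so the ratio outside OXmiR400 is limited by the precursor's few units. The order of the 2 loci was opposite in OXmiR400 and in the other genotypes.

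**Figure D2:**
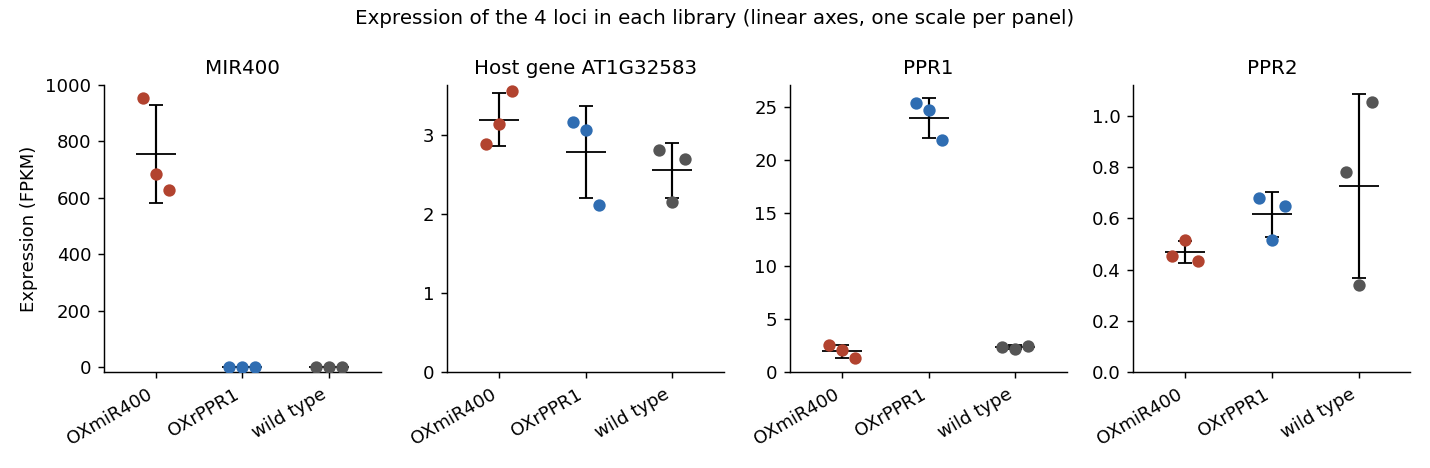
Expression in FPKM of each locus in the 9 libraries, 1 panel per locus with its own linear axis. Points are libraries, horizontal bars are means and whiskers are the SD (n = 3). MIR400 stands out in OXmiR400 (629 to 953 FPKM) and PPR1 in OXrPPR1 (21.9 to 25.5 FPKM), while the host gene and PPR2 stay within 2.12 to 3.56 and 0.342 to 1.05 FPKM.

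PPR1, the target that pairs with miR400 over its whole length, checks the label of the OXrPPR1 line. It measured 2.56, 2.10 and 1.34 FPKM in the OXmiR400 libraries, 25.5, 24.7 and 21.9 FPKM in the OXrPPR1 libraries and 2.40, 2.17 and 2.54 FPKM in the wild type libraries. All 3 OXrPPR1 libraries stood above the other 6. In OXrPPR1 against wild type the libraries of 14.7% of genes tested did not overlap, 0.0651% of genes were called and 0.02% were called higher. PPR1 was 2.89 ± 0.16 higher there on log2(FPKM + 1) (SE, 95% interval 2.53 to 3.25, adjusted p = 5.12e-05 in limma). This scale understates changes of low genes. Alternatives other than leaving 1 library out gave 2.89 to 3.29. The table gives 1 value per locus, so transgene and endogenous PPR1 transcripts are counted together.

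In OXmiR400, PPR1 was not detectably lower than in wild type. Of the 3 OXmiR400 libraries, 1 lay above all wild type libraries and 2 lay below all of them. The log2 difference was -0.19 ± 0.16 (SE, adjusted p = 0.612 in limma), with a 95% interval of -0.55 to 0.17. As a ratio of FPKM + 1 this interval runs from 0.684 to 1.13, so values well below 1 lie within it. The spread among the OXmiR400 libraries was wide, at 0.615 FPKM (SD, n = 3), against 0.186 FPKM in wild type (SD, n = 3). These levels rested on 50 to 99.5 units per OXmiR400 library and 69.25 to 87.5 units per wild type library. Leaving out OXmiR400 replicate 1 gave -0.32 and leaving out its replicate 3 gave -0.02, with no call in either case (adjusted p = 0.412 and 0.972 in limma).

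Between the lines, PPR1 fell by 3.08 ± 0.16 on log2(FPKM + 1) in OXmiR400 relative to OXrPPR1 (SE, adjusted p = 1.69e-05 in limma). Alternatives other than leaving 1 library out gave -3.56 to -3.08 for this difference. In that comparison 0.0651% of genes tested were called and 0.0251% were called lower, and the libraries of 13.2% did not overlap. The comparisons share libraries, and the size of this difference follows from the high PPR1 level in OXrPPR1.

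PPR2, the target with 1 unpaired base, was the lowest of the protein-coding loci. It measured 0.452, 0.516 and 0.434 FPKM in the OXmiR400 libraries, 0.681, 0.515 and 0.649 FPKM in the OXrPPR1 libraries and 0.780, 0.342 and 1.05 FPKM in the wild type libraries. The wild type libraries spanned the range of both lines, so the genotypes overlapped. PPR2 lay below the minimum mean of 1 FPKM in every genotype and was tested in the same model without that filter, over 26973 genes. Its log2 difference was -0.21 ± 0.15 in OXmiR400 against wild type (SE, 95% interval -0.55 to 0.13, adjusted p = 0.596 in limma), where 0.245% of genes were called. This value was -0.38 without wild type replicate 2, -0.075 without wild type replicate 3 and -0.43 with a pseudocount of 0.1, with no call (adjusted p = 0.221, 0.879 and 0.670 in limma, and 0.221 to 0.879 over all alternatives). It was -0.07 in OXrPPR1 against wild type (95% interval -0.41 to 0.26, adjusted p = 0.915 in limma; 0.0297% called) and -0.14 between OXmiR400 and OXrPPR1 (95% interval -0.47 to 0.20, adjusted p = 0.920; 0.0371% called). These levels rested on 9.5 to 25.75 units per library, and how small a change could be called at such a level was not tested.

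**Figure D3:**
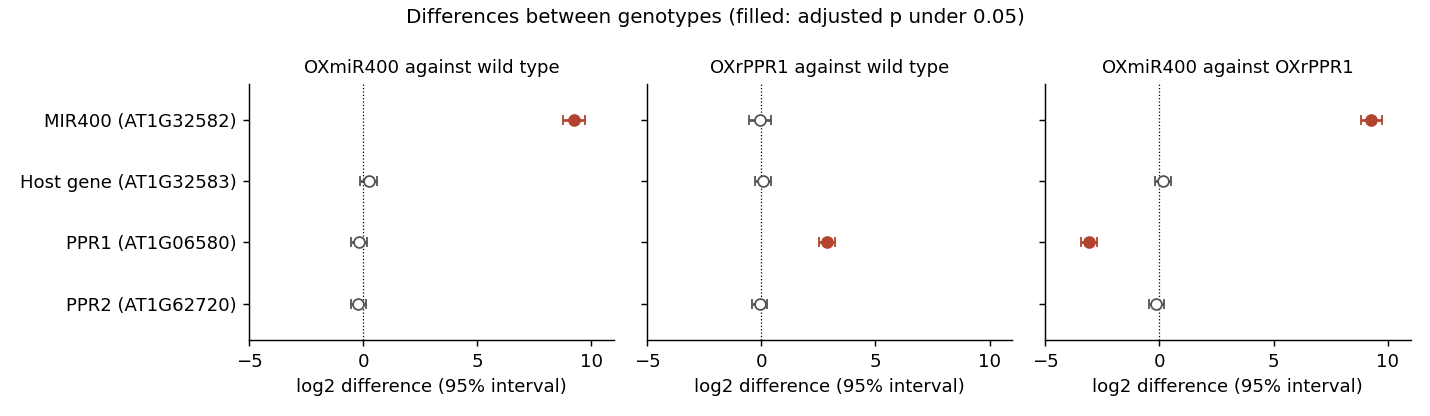
Log2 differences of the 4 loci in the 3 comparisons, first-named genotype minus the other, with 95% intervals from limma. Filled points passed an adjusted p of 0.05. MIR400 lies above 0 wherever OXmiR400 is compared, PPR1 lies above 0 in OXrPPR1 against wild type and below 0 in OXmiR400 against OXrPPR1, and all other intervals cross 0.

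The order of levels in wild type, on FPKM, which is per length, was the host gene (2.55 ± 0.350, SD, n = 3), PPR1 (2.37 ± 0.186), PPR2 (0.724 ± 0.358) and MIR400 (0.255 ± 0.291). The host gene and PPR1 did not differ beyond their spread. PPR2 and MIR400 were also close for their spread, since wild type replicate 2 had more MIR400 than PPR2. In OXrPPR1 the order was PPR1 (24.03 ± 1.87), the host gene (2.78 ± 0.578), PPR2 (0.615 ± 0.0877) and MIR400 (0.196 ± 0.178). In both genotypes the place of MIR400 relative to PPR2 is not determined, since 3 units of MIR400 correspond to 1.39 FPKM or more. In OXmiR400 it was MIR400 (755 ± 173), the host gene (3.195 ± 0.339), PPR1 (2.001 ± 0.615) and PPR2 (0.468 ± 0.0429).

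Other transcripts can pair with miR400, and they were searched for in 59694 annotated transcripts of 38074 loci. Each ungapped window of 21 bases was charged 1 for a mismatch and 0.5 for a G:U pair, doubled at microRNA positions 2 to 13. At a total of 4 or less, 22 loci besides the members had a site, and 21 of these carry a PPR or related repeat name. No other locus had a penalty below 2. The search also found the opposite arm of the MIR400 precursor itself, at a penalty of 3.5. The closest sites outside the members are shown for comparison with the PPR1 and PPR2 sites above, with unpaired and G:U bases in capitals.
AT1G62590, chr1:23177978-23177998, minus strand: guUacAuauaauacucucaua
AT3G22470, chr3:7966750-7966770, minus strand: gugacuuauaGuaUucucaua
AT3G16710, chr3:5691004-5691024, plus strand: gugaUuuauaCuacucucaua
RefSeq gives AT3G22470 and AT3G16710 numbered names in the same PPR series as PPR1 and PPR2. AT1G62590 has mismatches at microRNA positions 19 and 16 only, AT3G22470 has G:U pairs at positions 11 and 8, and AT3G16710 has unpaired or G:U bases at positions 17 and 11.

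The sites shared their place in the codon, which the search did not score. Of 23 coding sites, PPR1 and PPR2 included, 23 began at the first base of a codon. These sites lie in genes with PPR or related repeat names and were picked for likeness to the same 21 bases. They are therefore not independent of one another. The 21 others began 40.2% to 74.4% of the way along the coding sequence, with a median of 62.2%. Of the 24 loci with a site, PPR1 and PPR2 included, 70.8% are in the list of 28 Rf-like PPR genes, and 60.7% of that list had a site. Rf-like genes resemble restorers of fertility in other plants, and several of them, such as RPF2 and RPF3, are known to act in the processing of mitochondrial transcript ends.

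None of the other predicted targets was called in OXmiR400. Of the 22, 21 were in the table and 18 passed the filter on low values. In OXmiR400 against wild type, 0.571% of all genes tested passed in limma and 15.9% had an unadjusted p under 0.05. Of these 18, 0 passed and 0 had such a p, though a share of 0.571% would seldom give a call among so few. Their log2 differences ran from -0.30 to 0.33 with a median of -0.04, and 10 of 18 lay below 0. Over all genes tested the median was -0.02 and 53.1% lay below 0. In OXrPPR1 against wild type, 0 were called (0.0651% of all genes) and 1 had an unadjusted p under 0.05 (10.5% of all genes). The median there was -0.06 with 12 of 18 below 0, against -0.02 and 54.0% over all genes. Between OXmiR400 and OXrPPR1, 0 were called (0.0651% of all genes) and 0 had an unadjusted p under 0.05 (7.41% of all genes). The median between the lines was 0.02 against 0.00 over all genes.

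The closest of these sites can be read gene by gene. AT1G62590 measured 3.07, 2.31 and 2.13 FPKM in OXmiR400, 2.49, 2.32 and 2.23 FPKM in OXrPPR1 and 2.12, 2.25 and 2.55 FPKM in wild type. AT3G16710 measured 2.24, 1.19 and 1.76 FPKM in OXmiR400. Its values were 1.74, 1.64 and 1.93 FPKM in OXrPPR1 and 1.43, 1.47 and 1.73 FPKM in wild type. The log2 differences of these 2 genes in OXmiR400 against wild type were 0.08 ± 0.15 and 0.09 ± 0.17 (SE). Neither passed (adjusted p = 0.841 and 0.846 in limma). AT3G22470 measured 1.83, 1.82 and 0.998 FPKM in OXmiR400, 2.70, 1.83 and 1.497 FPKM in OXrPPR1 and 1.99, 2.05 and 2.03 FPKM in wild type. Every OXmiR400 library of AT3G22470 lay below the wild type libraries (24.3% of all genes did not overlap), with a log2 difference of -0.26 ± 0.20 (SE, adjusted p = 0.558 in limma). The smallest p in the list belonged to AT1G63080, which had the opposite sign: 1.73, 1.71 and 1.68 FPKM in OXmiR400, 1.43, 1.33 and 1.22 FPKM in OXrPPR1 and 1.51, 0.902 and 1.08 FPKM in wild type, a log2 difference of 0.33 ± 0.16 in OXmiR400 against wild type (SE, adjusted p = 0.333 in limma).

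AT1G64580 and AT2G06000 followed in order of p. AT1G64580 measured 2.56, 2.23 and 2.16 FPKM in OXmiR400, 2.54, 2.38 and 4.01 FPKM in OXrPPR1 and 3.17, 3.27 and 2.80 FPKM in wild type. AT2G06000 measured 5.91, 4.52 and 4.74 FPKM in OXmiR400, 5.65, 5.12 and 6.26 FPKM in OXrPPR1 and 5.84, 6.02 and 6.24 FPKM in wild type. Their log2 differences in OXmiR400 against wild type were -0.30 ± 0.17 and -0.22 ± 0.13 (SE), and neither passed (adjusted p = 0.435 and 0.442 in limma). The OXmiR400 libraries of AT1G64580 lay below the wild type libraries (24.3% of all genes did not overlap), while those of AT2G06000 overlapped them.

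Sorted by pairing, the medians lay close together. In OXmiR400 against wild type, 10 loci with a penalty of at most 3 had a median log2 difference of -0.04, 8 with 3.5 to 4 had -0.09 and 19 with 4.5 to 5 had -0.10. The members with the best sites, PPR1 and PPR2, lay at -0.19 and -0.21, but with 1 library left out they ran from -0.32 to -0.02 and from -0.38 to -0.075, so they are not shown to lie below the class medians. In the classes, the numbers below 0 were 6 of 10, 4 of 8 and 14 of 19.

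With the limit at 5 in place of 4, 37 loci besides the members were tested and 1 was called in OXmiR400 against wild type, GUN1 (AT2G31400), named after its value was seen. Over all genes 0.571% were called and 0.356% were called lower. GUN1 encodes a plastid PPR protein of plastid-to-nucleus signalling. It measured 40.7, 31.4 and 36.0 FPKM in OXmiR400, 52.7, 54.2 and 61.3 FPKM in OXrPPR1 and 68.3, 61.1 and 64.5 FPKM in wild type. All OXmiR400 libraries lay below the rest. Of all genes, 24.3% did not overlap between OXmiR400 and wild type and 13.2% between OXmiR400 and OXrPPR1. The share of genes with OXmiR400 apart from both was not computed. GUN1 fell by 0.83 ± 0.11 on the log2 scale in OXmiR400 relative to wild type (SE, adjusted p = 0.0209 in limma), and the call was lost without OXmiR400 replicate 1, 2 or 3 or wild type replicate 1 or 3 (adjusted p = 0.0540 to 0.112), while the log2 difference stayed between -0.92 and -0.74 with any 1 library left out. Against OXrPPR1 the difference was -0.63, with an adjusted p of 0.201 (limma). Its site has unpaired or G:U bases at microRNA positions 9, 4, 3 and 1, of which 4 and 3 are in the seed. The site of GUN1 is shown beside the fully paired PPR1 site for that reason.
GUN1 site, chr2:13389093-13389113, minus strand: gugacuuauaauGcucuUCuU
PPR1 site, chr1:2014950-2014970, minus strand: gugacuuauaauacucucaua

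**Figure D4:**
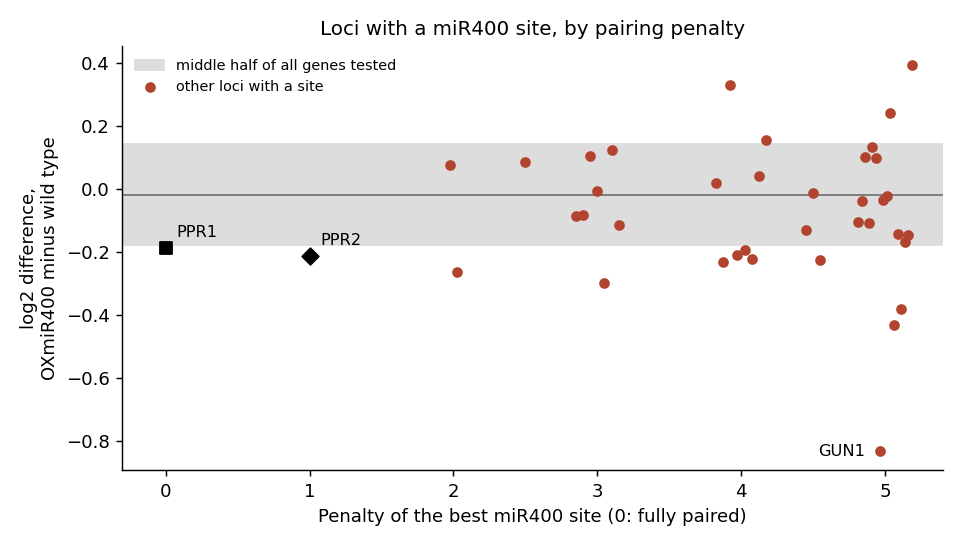
Log2 difference between OXmiR400 and wild type of each tested locus with a miR400 site, against the penalty of its best site. Points of equal penalty are spread sideways; the grey band holds the middle 50% of all genes tested and the line is their median. PPR1 and PPR2, with the lowest penalties, lie at -0.19 and -0.21, and GUN1, at a penalty of 5, lies lowest at -0.83.

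Among 28 Rf-like PPR genes, 25 were in the table and 22 passed the filter. In OXmiR400 against wild type, 0 of 22 were called in limma and 0 had an unadjusted p under 0.05, against 0.571% and 15.9% of all genes. The median log2 difference was -0.02 with 12 below 0. In OXrPPR1 against wild type, 1 rose and 0 fell, where 0.02% of all genes were called higher and 0.0451% lower. The 1 was PPR1 itself. In OXmiR400 against OXrPPR1, 0 rose and 1 fell, again PPR1, where 0.0401% of all genes were called higher and 0.0251% lower. No other Rf-like gene was called in either comparison.

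The genes that make, load and turn over small RNAs were next. All 27 listed were tested, among them DCL1, the nuclease that cuts microRNA precursors, and AGO1, the main microRNA-loaded Argonaute. In each comparison 0 of 27 were called in limma, with 0, 3 and 0 at an unadjusted p under 0.05 in OXmiR400 against wild type, OXrPPR1 against wild type and OXmiR400 against OXrPPR1. Over all genes 0.571%, 0.0651% and 0.0651% were called and 15.9%, 10.5% and 7.41% had such a p. DCL1 averaged 11.4, 10.5 and 11.9 FPKM in OXmiR400, OXrPPR1 and wild type, and AGO1 averaged 56.8, 52.7 and 63.6 FPKM. The median log2 differences were -0.09, -0.09 and 0.03, against -0.02, -0.02 and 0.00 over all genes.

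The smallest p in the machinery list, in OXmiR400 against wild type, belonged to BRM, a chromatin remodelling ATPase. BRM measured 18.0, 13.4 and 14.8 FPKM in OXmiR400, 14.6, 14.6 and 17.6 FPKM in OXrPPR1 and 18.4, 19.1 and 17.8 FPKM in wild type, a log2 difference of -0.26 ± 0.12 in OXmiR400 against wild type (SE, adjusted p = 0.346 in limma). ABH1, the large subunit of the nuclear cap-binding complex, measured 13.9, 11.6 and 13.3 FPKM in OXmiR400, 12.6, 11.1 and 12.02 FPKM in OXrPPR1 and 15.6, 15.7 and 14.0 FPKM in wild type. The libraries of both lines lay below those of wild type for ABH1, as for 24.3% of all genes in OXmiR400 and 14.7% in OXrPPR1 in either direction, and neither difference passed (adjusted p = 0.356 and 0.333 in limma). SGS3, an RNA silencing factor, averaged 4.90 FPKM in OXmiR400, 4.77 in OXrPPR1 and 6.07 in wild type. SE, a zinc finger protein of precursor processing, averaged 21.9, 23.97 and 25.3 FPKM in the same order, and neither passed.

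Other small RNA loci act on PPR transcripts. MIR161 and MIR173 had means of 0.529 and 0.201 FPKM in OXmiR400, 0.217 and 0.158 FPKM in OXrPPR1 and 0.146 and 0 FPKM in wild type, below the filter. The 4 tested loci were the trans-acting small RNA precursors TAS1A, TAS1B, TAS1C and TAS2, whose products are cut after miR173 acts and are known to pair with PPR and other transcripts. TAS2 measured 37.6, 31.5 and 33.0 FPKM in OXmiR400, 27.98, 28.5 and 31.5 FPKM in OXrPPR1 and 34.5, 27.1 and 24.7 FPKM in wild type. TAS1A measured 22.1, 18.6 and 18.0 FPKM in OXmiR400, 13.03, 12.9 and 16.4 FPKM in OXrPPR1 and 20.1, 15.05 and 15.9 FPKM in wild type. For TAS1A every OXmiR400 library lay above every OXrPPR1 library, in a comparison where 13.2% of all genes did not overlap.

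None of the 4 TAS loci was called in any comparison in limma. Their median log2 differences were 0.18 in OXmiR400 against wild type, -0.15 in OXrPPR1 against wild type and 0.31 in OXmiR400 against OXrPPR1, with 0, 1 and 2 at an unadjusted p under 0.05, which 15.9%, 10.5% and 7.41% of all genes had. All 4 lay above 0 in OXmiR400 against wild type and against OXrPPR1, where 53.1% and 49.6% of all genes lay below 0. The TAS1 loci resemble one another, so reads may have been shared between them.

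For MIR400, PPR1 and PPR2, the 3 nearest genes of the table on each side that do not overlap the locus or its host were also compared. Of the 18 loci, 14 passed the filter. In OXmiR400 against wild type 1 fell (0.356% of all genes) and 0 rose in limma, and in the other 2 comparisons 0 were called. An unadjusted p under 0.05 was found for 2 of the 14 in OXmiR400 against wild type, 1 in OXrPPR1 against wild type and 3 in OXmiR400 against OXrPPR1, against 15.9%, 10.5% and 7.41% of all genes. Next to MIR400, AT1G32580 ends 231 bases before the precursor. This gene of the DAG-like family, whose members take part in organelle RNA editing, measured 25.7, 26.9 and 27.2 FPKM in OXmiR400, 22.3, 30.7 and 31.5 FPKM in OXrPPR1 and 33.7, 26.9 and 23.3 FPKM in wild type. The genotypes overlapped, and the log2 difference between OXmiR400 and wild type was -0.06 ± 0.16 (SE, adjusted p = 0.896 in limma).

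Next to PPR1, PDS1, an enzyme of tocopherol and plastoquinone synthesis, lies 450 bases away. PDS1 measured 38.9, 47.9 and 64.6 FPKM in OXmiR400, 78.8, 78.8 and 62.8 FPKM in OXrPPR1 and 36.5, 81.1 and 41.2 FPKM in wild type. Its log2 difference of 0.55 ± 0.29 in OXrPPR1 against wild type did not pass (SE, adjusted p = 0.552 in limma), and wild type replicate 2 lay above all OXrPPR1 libraries. On the other side, 32 bases from PPR1, AT1G06590, a subunit of the anaphase-promoting complex, measured 5.78, 4.52 and 4.67 FPKM in OXmiR400, 5.25, 5.13 and 7.21 FPKM in OXrPPR1 and 7.89, 7.91 and 6.65 FPKM in wild type. The OXmiR400 libraries lay below the wild type libraries (24.3% of all genes did not overlap), with a log2 difference of -0.50 ± 0.15 that did not pass (SE, adjusted p = 0.152 in limma). No tested neighbour of PPR1 was called in OXrPPR1.

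The neighbour that fell was BETA-VPE (AT1G62710), 548 bases from PPR2, a vacuolar processing enzyme known for cutting seed storage proteins. It measured 3.38, 3.43 and 3.96 FPKM in OXmiR400, 5.28, 5.89 and 5.55 FPKM in OXrPPR1 and 6.06, 6.52 and 8.24 FPKM in wild type. The 3 genotypes did not overlap, with OXrPPR1 between the others. Of all genes, 24.3% did not overlap between OXmiR400 and wild type, 14.7% between OXrPPR1 and wild type and 13.2% between OXmiR400 and OXrPPR1. The share of genes with all 3 genotypes apart was not computed. BETA-VPE fell by 0.78 ± 0.14 on the log2 scale in OXmiR400 relative to wild type (SE, adjusted p = 0.0409 in limma). The call was lost with no filter (adjusted p = 0.0569), with only the 6 libraries compared (0.0566), with the replicate number as a block (0.0539) and without any 1 library except OXrPPR1 replicate 3 (up to 0.168). The log2 difference stayed between -0.92 and -0.67 under all alternatives.

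**Figure D5:**
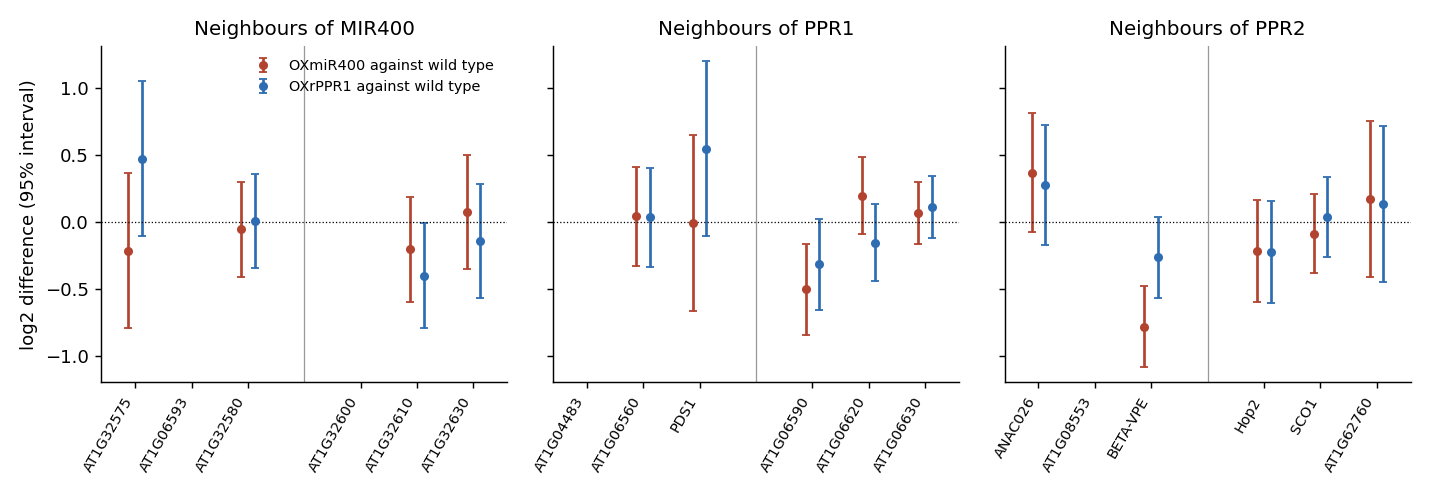
Log2 differences from wild type, with 95% intervals from limma, of the loci flanking MIR400, PPR1 and PPR2 in OXmiR400 and OXrPPR1. Loci are in order of distance on each side of the member, which is at the vertical line, and those below the filter have no point. BETA-VPE in OXmiR400 (-0.78) was the 1 called difference.

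The genes whose pattern was most like each member were found by Pearson's r on log2(FPKM + 1) over the 9 libraries, among 19954 genes, as a description. These r share the libraries and depths and mostly reflect the 1 genotype that stands apart. For MIR400 the nearest was a second listing of the same locus under another identifier (r = 1.00), which also passed the filter only through OXmiR400. The next were AT3G23510, a cyclopropane fatty acid synthase gene (r = 0.985), and AT3G02620, a stearoyl-acyl-carrier-protein desaturase gene (r = 0.974). AT3G23510 measured 5.68, 4.68 and 4.095 FPKM in OXmiR400, 1.15, 1.14 and 1.05 FPKM in OXrPPR1 and 0.674, 0.891 and 1.02 FPKM in wild type. AT3G02620 measured 8.49, 7.85 and 6.28 FPKM in OXmiR400, 1.87, 1.84 and 1.84 FPKM in OXrPPR1 and 1.02, 1.61 and 2.002 FPKM in wild type. In both genes the OXmiR400 library with the highest MIR400 value was also the highest, but that order is part of the r that picked them.

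For PPR1 the nearest was AT3G01345, annotated as an expressed protein (r = 0.989). It measured 0.145, 0.159 and 0.265 FPKM in OXmiR400, 109, 118 and 131 FPKM in OXrPPR1 and 0, 0.0452 and 0.174 FPKM in wild type. AT5G54370, with a late embryogenesis abundant-like product (r = 0.963), averaged 0.427 FPKM in OXmiR400, 2.20 in OXrPPR1 and 0.667 in wild type. AT2G43880, with a pectin lyase-like product (r = 0.933), averaged 0.370, 1.31 and 0.320 FPKM in OXmiR400, OXrPPR1 and wild type. All 3 genes passed the filter of 1 FPKM only through OXrPPR1, so their likeness to PPR1 is partly set by that filter. Within OXrPPR1 the order of AT3G01345 was the reverse of the order of PPR1, since PPR1 was highest in replicate 1 and AT3G01345 was highest in replicate 3.

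For the host gene the nearest were MIR841b (r = 0.947), the protease inhibitor gene CYSA (r = 0.933) and the trypsin inhibitor gene TI2 (r = 0.928). MIR841b measured 2.58, 3.34 and 5.22 FPKM in OXmiR400, 2.90, 2.31 and 0.891 FPKM in OXrPPR1 and 2.87, 1.15 and 1.67 FPKM in wild type. Like the host gene, it was highest in OXmiR400 replicate 3 and lowest in OXrPPR1 replicate 3, places that are part of the r that picked it. Its genotypes overlapped. PPR2 was below the filter and was not compared in this way.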

How the data were processed

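TRIzol RNA went into SMARTER mRNA-Seq libraries, per the labels' protocols. The authors deposited FPKM, a unit inferred here because neither headers nor labels name it. The 3 deposited files hold identical values, of which 1 served. The builds named in the submitters' processing notes, GRCm38 and mm10, are mouse builds, yet 26513 of 26973 identifiers matched loci of TAIR10.1 (RefSeq), with equal gene bounds in 99.966%. The names of the aligner and counting program were not given in the sources used here. Low FPKM multiplied by exon length fell on steps of 0.25 unit in 99.6% to 99.9% of values (tolerance 0.05 of a step). Whole units were reached in 37.1% to 42.3%, so no count model was used for the tests. Only the counting interval of the MIR400 ratio treats units as counts.

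A genotype mean of 1 FPKM or more, in any genotype, was required (19955 genes). Tests ran on log2(FPKM + 1), a scale that understates changes of low genes, with limma 3.58.1 (R 4.3.3): 1 linear model over all 9 libraries, robust empirical Bayes variance with a trend, and p-values adjusted by Benjamini-Hochberg over all genes tested. Calls use adjusted p under 0.05. An exact permutation test of 3 against 3 libraries cannot go below 0.1 and was not used. Simulated data for OXmiR400 against wild type (19955 genes, 3 sets, changed genes of at least 2 FPKM) gave 205 of 300 changes of 2-fold (68.3%), 285 of 300 of 4-fold (95%) and 15 false calls. The simulation used independent normal noise. It did not cover predicted targets below 2 FPKM, such as AT1G63080 and AT3G16710, so these shares do not describe them. The microRNA precursor was folded with RNAfold 2.7.2. The rule for the members used no measured value, but members, lists and tests were chosen with earlier results of these data known. The text names the members, flanking loci and the 3 genes most like each member. From each list it names the called genes, or otherwise up to 4 with the smallest p in OXmiR400 against wild type. DCL1, AGO1, AT1G62590, AT3G16710, TAS1B, TAS1C and GUN1 were added. Same-numbered libraries of different genotypes deviated together at r = -0.246 to 0.133, over 0.1 in 2 of 9 pairs, so the numbers were not used as pairs. Alternatives were other pseudocount, filters, scalings, variance model, samples, block, penalty limits and each library left out.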

Additional observations from a re-analysis of the deposited data

Results flagged for a closer look

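The MIR400 locus is listed a second time in the table under another identifier, which is not one of the 4 loci compared above but was among the genes tested. That listing had a mean of 755 FPKM in OXmiR400, with 953, 684 and 629 FPKM in the 3 libraries, against 0.116, 0 and 0 FPKM in OXrPPR1 and 0.194, 0.572 and 0 FPKM in wild type. It was singled out because it is signal in a row other than the 4 compared, far above the wild type libraries. In OXmiR400 its values equal those of MIR400 in replicates 1 and 2, so the locus counts as 2 of the 114 genes called there.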

How the results depend on the processing

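The 12 differences of the 4 loci were recomputed under 207 alternatives in all. In 203 the direction and the side of the threshold were kept, and in 4 a difference that was never called changed sign: in OXrPPR1 against wild type, MIR400 (-0.21 to 0.12 with a library left out; above 0 without OXrPPR1 replicate 3 or wild type replicate 2), the host gene (-0.0015 to 0.22; below 0 without wild type replicate 2) and PPR2 (-0.24 to 0.062; above 0 without wild type replicate 3). PPR1 in OXmiR400 against wild type ran from -0.32 to -0.02 with each library left out in turn, and PPR1 in OXrPPR1 against wild type from 2.85 to 2.95. The host gene and PPR2 have no value with a filter of 5 FPKM, which they did not pass. The number of genes called was less steady. In OXmiR400 against wild type it was 114, and 216 with only the 6 libraries compared, 66 with no filter and 8 to 194 with a library left out. In OXrPPR1 against wild type it was 13, and 41, 8 and 4 to 44. In OXmiR400 against OXrPPR1 it was 13, and 24 with only the 6 libraries compared, 7 with the replicate block and 7 to 18 with a library left out. With the penalty limit at 5, 1 predicted target was called, and 0 at limits 3 and 4. The call of 1 flanking locus became 0 with only the 6 libraries compared, with the replicate block and with no filter, and 0 to 1 with a library left out. The cause was not tested. The block changed no call of the 4 loci. Depth limits MIR400 outside OXmiR400, and PPR2 rests on 9.5 to 25.75 units per library.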
